A study of Rattus norvegicus with 42 samples.

Results

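The 9 genes described here encode proteins that mature oligodendrocytes place in or along the myelin sheath, namely Mbp, Mobp, Mog, Mag, Cnp, Mal, Opalin, Cldn11 and Ermn. They were found by gene symbol in the deposited count table, which held 14 transcripts of these genes among 15516 transcripts in all, 6 of them of Mbp. All 14 passed the filter on low counts, as did 13062 transcripts of the whole table. The hippocampi came from male Sprague Dawley rat pups that were injected intraperitoneally on postnatal day 7 with phenobarbital at 75 mg/kg (PB), with levetiracetam at 200 mg/kg (LEV) or with saline (VEH), and tissue was taken 72 h later. No group carried an added allele. All pups, whatever their group, were killed with sodium pentobarbital, itself a barbiturate, and perfused before dissection. Litters gave 1 pup to each group, and each library came from 1 animal. After removal of the VEH animal that its label marks as excluded, 13 VEH, 14 PB and 14 LEV animals were compared. Oligodendrocytes were represented in all 3 groups, with Sox10, Olig1 and Olig2 above 0 in all 41 animals.

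Oligodendrocytes arise from proliferating precursors that carry Pdgfra and Cspg4, pass through a short differentiating stage, and then wrap axons in compacted membrane. The genes of that membrane are switched on late in this sequence, under the transcription factors Sox10 and Myrf. The rodent hippocampus is only starting to myelinate in the second week of life, so that transcripts of the latest stage are still scarce there. In whole tissue, fewer myelinating cells and less RNA per cell cannot be told apart.

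Totals ranged from 9499492 to 14488134 estimated counts per animal over the 3 groups. A normalized count is the count scaled to the mean effective library size. The labels carry 2 forms of animal code, one for animals 1 to 6 and one for animals 7 to 14 of each group, here called code series, and the code series was a term of the test. PB animals 2 and 7 stood apart from the other animals: the summed level of 22 genes of sterol and fatty acid synthesis was 29214 normalized counts in PB animal 2, against 48895 or more in the rest, and their neuronal markers were the lowest of the 41 animals (59632 and 63173 normalized counts). The calls of Opalin and Mobp and the correlations between the genes are given with and without them. The tests of Opalin and Mobp relative to the other genes are given only with them.

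The sequences upstream of 4 of these genes are shown because Opalin and Mobp were the 2 genes with the lowest values after PB relative to VEH, whereas Mag and Cnp, which encode an adhesion molecule and an enzyme of the same sheath, were close to VEH. Of the 9 genes, 7 had an entry in the RefSeq promoter table of build GRCr8, which is not the build (rn6) of the counts. The 250 bases before the annotated start are printed 5′ to 3′ on the gene's strand, Opalin from chr1:249858191-249858440, Mobp from chr8:128746982-128747231, Mag from chr1:95291045-95291294 and Cnp from chr10:86011254-86011503. Capitals mark ACAAAG, the core letters that Sox factors recognise, and CTGGCAC or CTGGTAC, the letters that Myrf recognises, searched on both strands.
Opalin: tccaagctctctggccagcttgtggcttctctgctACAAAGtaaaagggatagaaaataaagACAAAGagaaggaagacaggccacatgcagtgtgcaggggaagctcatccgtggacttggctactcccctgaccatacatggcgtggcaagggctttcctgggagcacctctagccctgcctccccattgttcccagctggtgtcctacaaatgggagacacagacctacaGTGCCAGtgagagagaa
Mobp: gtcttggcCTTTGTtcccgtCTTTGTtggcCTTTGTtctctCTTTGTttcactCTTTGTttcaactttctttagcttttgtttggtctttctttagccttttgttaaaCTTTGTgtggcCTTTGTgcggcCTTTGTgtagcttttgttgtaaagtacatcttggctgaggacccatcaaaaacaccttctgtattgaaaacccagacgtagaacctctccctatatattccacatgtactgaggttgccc
Mag: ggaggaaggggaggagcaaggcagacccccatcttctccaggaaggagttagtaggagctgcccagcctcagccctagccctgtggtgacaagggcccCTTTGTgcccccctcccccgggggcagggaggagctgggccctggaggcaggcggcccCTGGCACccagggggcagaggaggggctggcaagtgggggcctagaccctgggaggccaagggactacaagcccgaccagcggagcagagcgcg
Cnp: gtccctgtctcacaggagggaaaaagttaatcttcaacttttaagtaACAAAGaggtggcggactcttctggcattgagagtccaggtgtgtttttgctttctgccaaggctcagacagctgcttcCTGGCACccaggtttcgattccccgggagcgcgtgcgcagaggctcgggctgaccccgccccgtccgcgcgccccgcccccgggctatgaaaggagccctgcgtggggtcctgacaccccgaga

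The Opalin window held ACAAAG 2 times and the Myrf letters 1 time, the Mag and Cnp windows held each of them 1 time, and the Mobp window held ACAAAG 8 times, in repeats read on the opposite strand, and the Myrf letters 0 times. Over 33469 promoters of the table, ACAAAG was present in 16.3% and the Myrf letters in 5.48% of such windows. A match describes the letters only.

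Opalin (NM_001017386, rn6 chromosome 1, 260324028 to 260341678), a transmembrane glycoprotein of the late oligodendrocyte, fell after PB relative to VEH. Its normalized counts were 0.970 at the lowest, 3.94 at the median and 26.7 at the highest in PB animals. They were 4.46, 12.6 and 69.4 in VEH animals, and 8.83, 24.5 and 46.9 in LEV animals. Thus 8 of 14 PB animals lay below every VEH animal, and 11 of 14 lay below every LEV animal, while the LEV values lay inside the VEH range. PB animals averaged 7.28 ± 8.11 (SD, n = 14) and VEH animals 19.6 ± 17.1 (SD, n = 13), a log2 fold change of -1.39 (SE 0.41, adjusted p = 0.0339, quasi-likelihood test of edgeR, p adjusted by Benjamini-Hochberg). Depth is a limit here, as 8 of the 14 PB animals had under 5 counts of Opalin. Leaving out any 1 of 9 animals (VEH 3, 12 or 14, PB 2, 3, 6, 7, 10 or 11) took the adjusted p of the same test above the limit, to at most 0.105, with log2 fold changes of -1.69 to -1.08 over all 41 such fits. Without PB animals 2 and 7 the value was -1.19 (adjusted p = 0.0957, edgeR). With the animal number as a replicate block, which no label calls a litter, it was -1.35 (adjusted p = 0.0578, edgeR).

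Mobp (NM_012720, rn6 chromosome 8, 128824508 to 128850361), which encodes a small basic protein of the compact sheath, had the widest spread between animals of the 9 genes on the log2 scale. In PB animals its normalized counts were 9.80 at the lowest, 64.3 at the median and 503 at the highest. VEH animals had 86.2, 210 and 560, and LEV animals 167, 322 and 538. Of the PB animals, 9 of 14 lay below every VEH animal, and the other 5 lay within the VEH range. The log2 fold change of PB against VEH was -0.92 (SE 0.37), which did not pass the limits (adjusted p = 0.134, edgeR's quasi-likelihood test). Animals 1 to 6 taken as a subset gave -0.41 and animals 7 to 14 gave -1.45, and the change between the code series did not pass the test (adjusted p = 0.639, edgeR).

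The other 7 genes did not pass the limits between PB and VEH. Mal, a proteolipid of membrane rafts, had a log2 fold change of -0.45 (SE 0.32), and Ermn, a cytoskeletal protein of the late sheath, had -0.57 (SE 0.35). Mag, the adhesion molecule on the axonal side of the sheath, had -0.17 (SE 0.19), and Mog, an immunoglobulin-like protein of its outer face, had -0.08 (SE 0.09). Values above 0 were found for Cnp, the cyclic nucleotide phosphodiesterase of the non-compacted membrane (0.16, SE 0.08), and for Cldn11, the claudin of its tight junctions (0.19, SE 0.19). Cnp values were 2376 at the lowest, 3437 at the median and 4336 at the highest in PB animals, and 2396, 2756 and 4191 in VEH animals. The median Cnp level was thus higher in PB than in VEH animals, opposite to Opalin and Mobp, with nearly coincident ranges.

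In all, 1 of the 14 transcripts was differentially expressed between PB and VEH (Opalin, lower), whereas 0.605% of all 13062 transcripts tested were, and 0.26% were lower. An unadjusted p under 0.05 was reached by 2 of 14, against 20.2% of all transcripts. Without PB 5 it was 4 of 14, and the share of all transcripts was not counted in that fit. The median log2 fold change of the 14 was -0.12 and that of all transcripts was below 0.01, as both directions were present among the members (9 lower, 5 higher, with 48.1% of all transcripts lower).

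**Figure D1:**
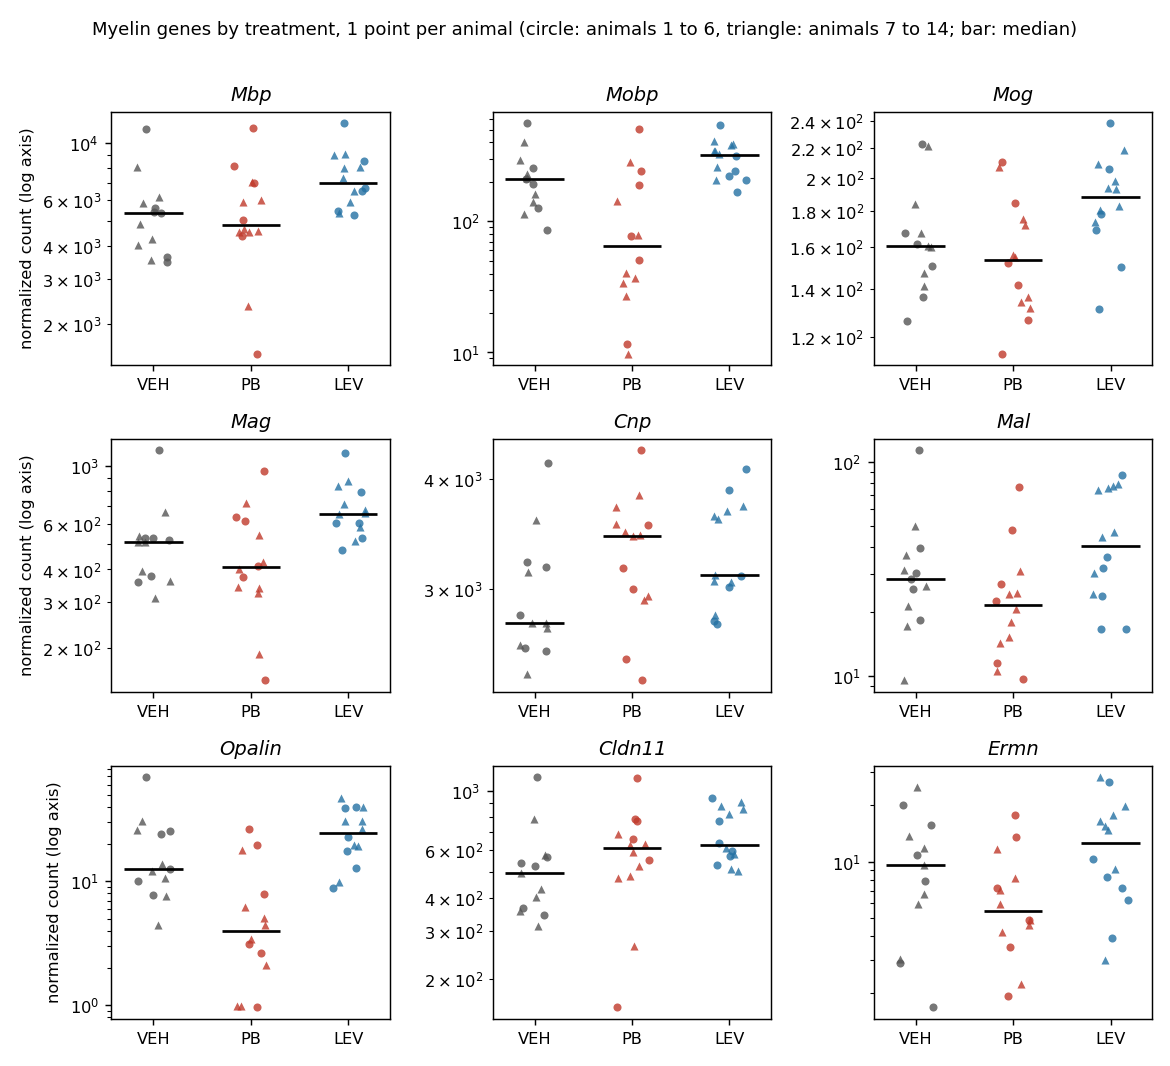
Normalized counts of the 9 genes (y axis, log scale, summed over the transcripts of a gene) in VEH, PB and LEV animals (x axis), with 1 point per animal and the median as a bar. Opalin and Mobp have most PB animals below the VEH and LEV animals, whereas the Cnp values of the 3 groups overlap over most of their range. For Cldn11, 4 of 14 PB animals lie below every LEV animal.

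Mbp, the basic protein that holds the layers of compact myelin together, was counted as 6 transcripts. Of these, 5 share the rn6 interval 79406381 to 79437311 of chromosome 18. The other, NM_001025289, starts 79643 bases upstream (79326738 to 79407293). The Mbp locus is known to have a far upstream start, from which the Golli proteins are made, also outside myelin. Summed over its transcripts, Mbp had 1543 normalized counts at the lowest, 4844 at the median and 11386 at the highest in PB animals. VEH animals had 3484, 5350 and 11250, and LEV animals 5283, 7024 and 11889. The lowest values were those of PB animals 2 and 7, and of the remaining PB animals only PB 5, the highest, lay outside the VEH range, just above it. The log2 fold change of the sum was 0.0011 between PB and VEH (SE 0.19, 95% interval -0.38 to 0.38).

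The transcript with the upstream start varied little, with 171 to 419 normalized counts among VEH animals, 195 to 330 among PB animals and 177 to 326 among LEV animals. Its log2 fold changes were -0.06 (PB against VEH), 0.0058 (LEV against VEH) and -0.06 (PB against LEV). The other transcripts had 0.31 to 0.53 after LEV relative to VEH. NM_017026 made up 32.4% ± 2.93 (SD, n = 13) of the Mbp counts of VEH animals. Its share was 29.0% ± 3.32 (n = 14) after PB and 34.4% ± 2.72 (n = 14) after LEV. NM_001025294 made up 23.3% ± 3.52 in the VEH group, 26.8% ± 3.95 after PB and 21.0% ± 2.11 after LEV. The mean shares of both transcripts differed from VEH in opposite directions in the PB and LEV groups, by about the SD between animals. These differences were not tested, and the shares are uncertain, since the authors' algorithm divided shared reads among overlapping transcripts.

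After LEV, all 9 genes had fitted log2 fold changes above 0 relative to VEH, and none passed the limits. Mag had 476 normalized counts at the lowest, 657 at the median and 1123 at the highest in LEV animals, and 313, 513 and 1156 in VEH animals. Cldn11 had 503, 625 and 938 in LEV animals, and 315, 491 and 1128 in VEH animals. For both genes VEH animal 3 lay above every LEV animal, and the next highest VEH animal, at 669 for Mag and 786 for Cldn11, lay below at least the 5 highest LEV animals. The groups overlapped in the rest of the range. The log2 fold changes were 0.43 for Mag (SE 0.19) and 0.42 for Cldn11 (SE 0.19), with unadjusted p = 0.0310 and p = 0.0282 by edgeR's quasi-likelihood test. Opalin had 0.46 (SE 0.36), Mobp 0.47 (SE 0.35), Mal 0.49 (SE 0.31), Ermn 0.34 (SE 0.33), Mog 0.18 (SE 0.09) and Cnp 0.16 (SE 0.08).

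None of the 14 transcripts was differentially expressed between LEV and VEH by edgeR's quasi-likelihood test (lowest adjusted p = 0.774) or by DESeq2, and 0% of all transcripts passed in edgeR. All 14 were higher than in VEH, against 50.2% of all transcripts, and 5 of 14 had an unadjusted p under 0.05 (6 by DESeq2), against 5.84% of all. The median log2 fold change of the 14 was 0.43. Single animals moved the count at an unadjusted p under 0.05: it was 11 without VEH 3, 8 without VEH 12 or LEV 5, 3 without VEH 6 or LEV 14, and 2 without VEH 5, VEH 11 or LEV 2. The share of all transcripts at that limit was not counted in these fits. Without VEH 3 the log2 fold changes were 0.75 for Opalin and 0.76 for Mal. The genes vary together between animals, as described below, so that these 14 values do not count as separate pieces of evidence.

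The drugs were also compared directly, since a difference after 1 drug alone does not show that they differ. Opalin was 3.62-fold lower in PB than in LEV animals (log2 fold change -1.85, SE 0.39, adjusted p = 0.00496, edgeR) and Mobp was 2.62-fold lower (-1.39, SE 0.36, adjusted p = 0.0211, edgeR). For Mobp, 10 of 14 PB animals lay below every LEV animal. These 2 of 14 transcripts passed both limits, as did 0.582% of all transcripts, with 0.299% lower. Mag just missed them by transcript (-0.60, SE 0.19, adjusted p = 0.0572, edgeR) and passed with counts summed per gene symbol (adjusted p = 0.0493, edgeR, where 0.608% of all genes passed). Both calls held in each of the 41 fits that left out 1 animal, and leaving out PB 5, LEV 1 or LEV 5 brought the count to between 4 and 6 of 14. Of all transcripts, 101 of 13045, 74 of 13043 and 72 of 13049 passed in those 3 fits. Without PB animals 2 and 7, Opalin passed (-1.66, adjusted p = 0.0170, edgeR) and Mobp did not (-1.18, adjusted p = 0.0552, edgeR).

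All 14 transcripts were lower in PB than in LEV animals, against 48.7% of all transcripts, and 9 of 14 had an unadjusted p under 0.05, against 19.6% of all. Mal had -0.94 (SE 0.31), Ermn -0.91 (SE 0.34), Mog -0.25 (SE 0.09) and Cldn11 -0.23 (SE 0.18). Cnp had -0.0017 (SE 0.08, 95% interval -0.16 to 0.16), with ranges of 2376 to 4336 in PB and 2741 to 4103 in LEV animals. The members thus ranged from a difference of several fold in Opalin to a Cnp difference with a narrow interval around 0. This comparison shares the PB animals with the first and the LEV animals with the second, so the 3 sets of values are not independent.

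**Figure D2:**
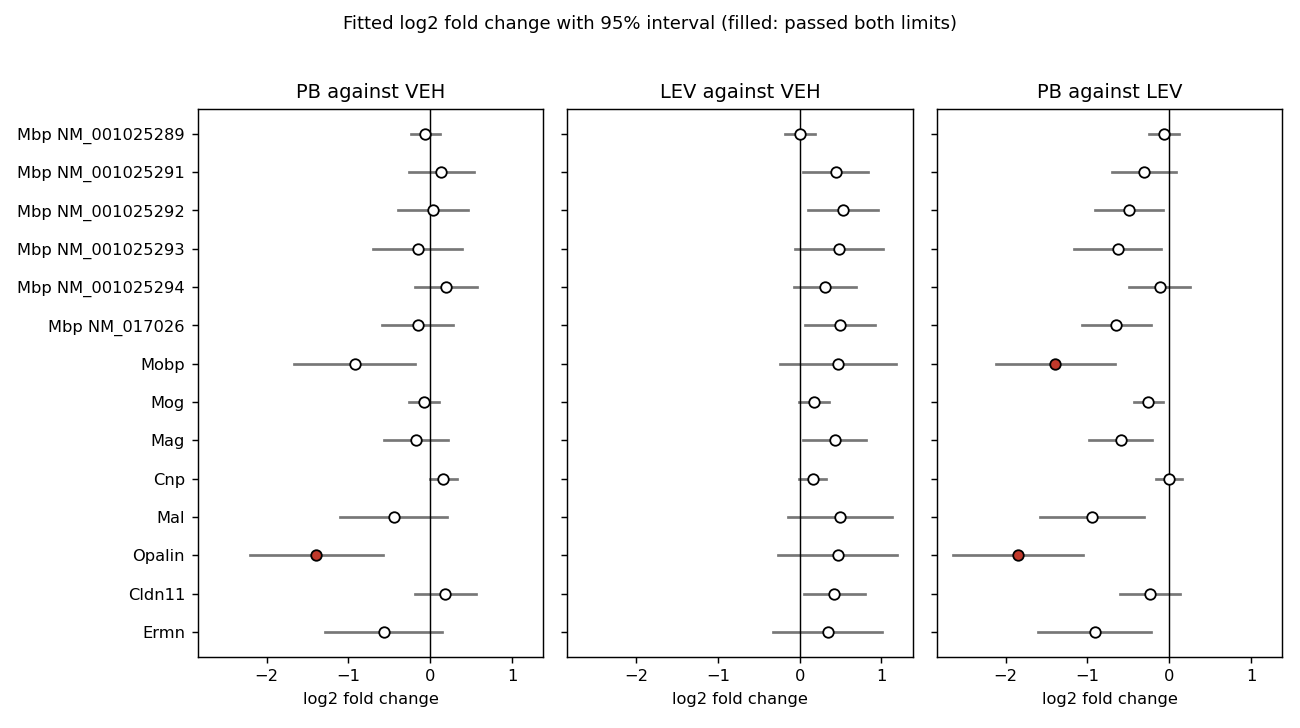
Fitted log2 fold changes (x axis) with 95% intervals for the 14 transcripts (y axis) in PB against VEH, LEV against VEH and PB against LEV. Filled points passed both limits: Opalin in PB against VEH, and Opalin and Mobp in PB against LEV.

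Between the code series, no difference in treatment effect passed an adjusted p of 0.05 in any of the 14 transcripts (lowest adjusted p = 0.340, edgeR), and 9, 110 and 3 of all transcripts passed in the 3 comparisons (0.0689%, 0.842% and 0.023% of those tested). At an unadjusted p under 0.05 it was Mal alone, in 2 comparisons. For Mal, LEV against VEH was -0.27 for animals 1 to 6, and it was 1.04 for animals 7 to 14. PB against VEH for Opalin was -1.27 and -1.53. It passed in neither code series when each was fitted alone (adjusted p = 0.426 and 0.07, edgeR), whereas Mobp passed among animals 7 to 14 (-1.45, adjusted p = 0.0482, edgeR). With animals 1 to 6 alone none of the 14 transcripts passed in any comparison (0 at an unadjusted p under 0.05 by edgeR). Of all 13112 transcripts in that subset, 17 passed in PB against VEH, 170 in LEV against VEH and 24 in PB against LEV. Animals 7 to 14 alone gave 1 of 14 between PB and VEH (168 of all 13065 transcripts) and 5 of 14 between PB and LEV (59 of 13065).

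Whether Opalin and Mobp moved apart from the other myelin genes was tested on the difference between log2 CPM values (counts scaled to library size, prior count 2) of 2 genes in the same animal, by two-sided permutation tests with 100000 resamples within the code series. The study had already reported Opalin as lower after PB from these same data, and Opalin had the lowest value of the members. The p-values of its ratios carry that selection. The log2 ratio of Opalin to Mbp was -9.48 ± 0.70 (SD, n = 14) in PB and -8.22 ± 0.64 (n = 13) in VEH animals. It lay below the VEH mean in 14 of 14 PB animals (difference -1.26, adjusted p = 0.00072). Against Cldn11 the Opalin difference was -1.47 (14 of 14 animals, adjusted p = 0.00072), against Mag -1.08 (14 of 14, adjusted p = 0.00188) and against Cnp -1.48 (12 of 14, adjusted p = 0.00187). Opalin was lower relative to 7 of the 8 other genes (adjusted p from 0.00072 to 0.0452 by these permutation tests) and the exception was Mobp (difference 0.19, adjusted p = 0.788).

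The same held for Mobp, which was examined after its values were seen. Its log2 ratio to Mbp was -6.12 ± 1.02 (SD, n = 14) after PB, against -4.67 ± 0.30 (n = 13) for VEH animals and -4.60 ± 0.20 (n = 14) after LEV. The spread of this ratio was thus widest in PB animals. Mobp was lower relative to 7 of 8 genes in PB against VEH and in PB against LEV, again with Opalin as the exception. Between LEV and VEH, 0 of 8 ratios of Opalin and 0 of 8 of Mobp passed the permutation test after adjustment (at an unadjusted p under 0.05, 0 and 1). The log2 values pull low counts together, which makes differences of Opalin smaller than on the count scale.

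**Figure D3:**
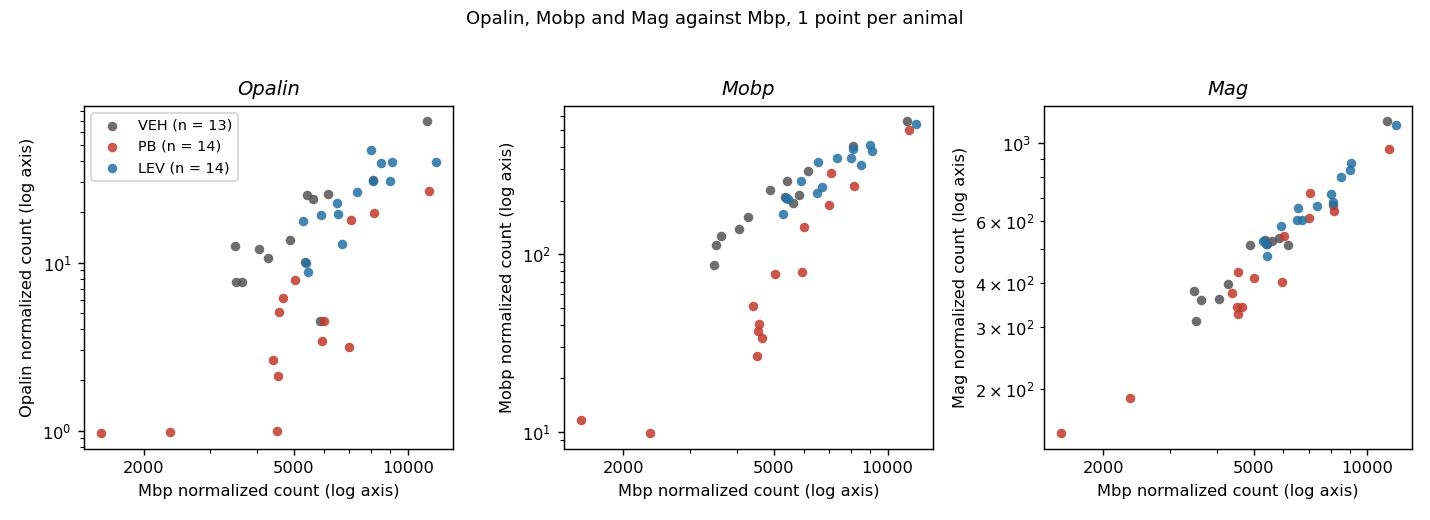
Normalized counts of Opalin, Mobp and Mag (y axes, log scale) against those of Mbp (x axis, log scale), with 1 point per animal. Most PB animals lie low for their Mbp level in Opalin and Mobp, whereas for Mag the 3 groups lie along nearly the same line. The log2 ratio to Mbp was below the VEH mean in 14 of 14 PB animals for Opalin and in 12 of 14 for Mobp.

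How the genes vary together was examined on log2 CPM summed per gene, with group and code-series means removed, over all 41 animals. All 36 pairs had positive correlations, with a median Pearson r of 0.698. The highest was Mbp with Mag (r = 0.973, rho = 0.953) and the lowest was Mobp with Ermn (r = 0.436, rho = 0.428). Every pair passed a two-sided permutation test with 100000 resamples after adjustment over the 36 pairs (adjusted p from 1.5e-05 to 0.00432 for r and from 1.71e-05 to 0.00569 for rho, where the smallest p that the resamples can give is 1e-05). Over all 85301400 pairs of tested transcripts the median r was -0.003, and 0.0954% of these pairs reached the median of the members. The genes of a pair share the library and its normalization.

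Mbp, Mag and Cldn11 formed the tightest group, with r of 0.956 between Mbp and Cldn11 and 0.928 between Mag and Cldn11. Mobp followed them closely (0.912 with Mbp and 0.927 with Mag). Cnp went with Mbp (0.819) and Mog (0.812), whereas Ermn had the weakest relations, from 0.436 to 0.558. Opalin had r of 0.775 with Mbp, 0.776 with Mag and 0.764 with Mobp. Without the 2 animals farthest from the median of the first gene of each pair, all 36 pairs stayed positive, with a median of 0.633 and a lowest r of 0.312 (Mobp with Ermn).

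The genes differed in their spread between animals. This spread holds all of a gene's variation, and its shared part was not separated. The SD of log2 CPM between animals, with group and code series removed, was 1.09 for Mobp, 0.92 for Opalin, 0.80 for Mal and 0.78 for Ermn. It was 0.55 for Mbp, 0.54 for Mag and 0.54 for Cldn11, and 0.24 for Mog and 0.22 for Cnp. The genes with the lowest counts, Opalin and Ermn, also carry the most counting error, but Mobp had 10 or more counts in every animal. Among animals 1 to 6 (n = 18) the median r of the 36 pairs was 0.837, and among animals 7 to 14 (n = 23) it was 0.590 with 31 of 36 pairs positive. Taken alone, the VEH group gave 0.807, the PB group 0.689 and the LEV group 0.792.

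**Figure D4:**
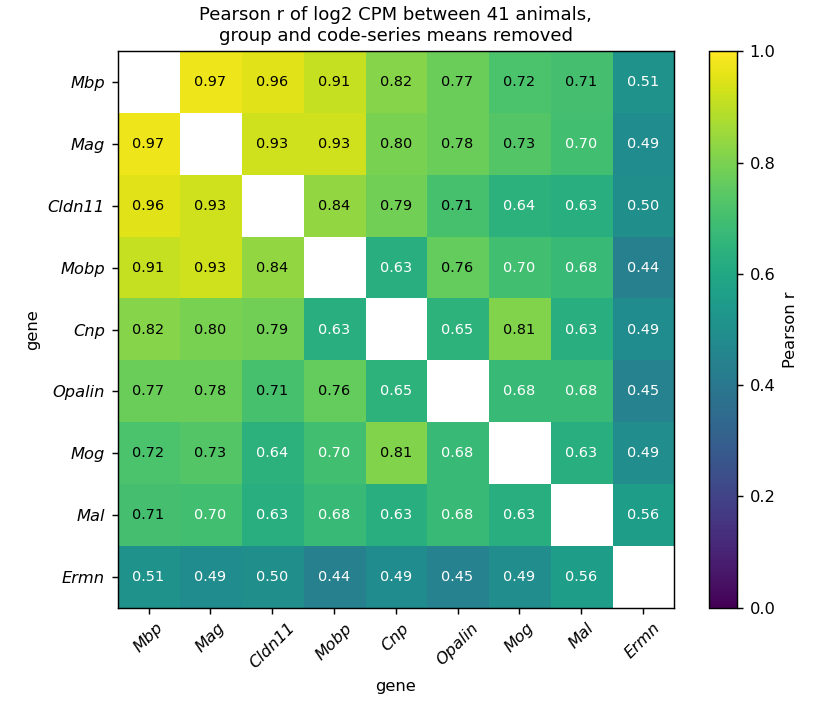
Pearson r between each pair of the 9 genes over 41 animals, after removal of group and code-series means, with the genes ordered by their mean r on both axes and r given by colour and number. Mbp, Mag and Cldn11 have r above 0.9 with each other, and Ermn has the lowest values in every row.

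Some animals were high or low for most of the genes. VEH animal 3 and LEV animal 2 were among the 5 highest of the 41 animals for all 9 genes, and PB animal 5 was so for 7 of 9. PB animal 2 was among the 5 lowest for 8 of 9 genes and PB animal 7 for 5 of 9. High and low animals thus occurred within the PB and VEH groups, since VEH animals 5, 6 and 11 were among the 5 lowest for 4 genes each. Leaving out PB animals 2 and 7 gave a median r of 0.749 with all 36 pairs positive.

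**Figure D5:**
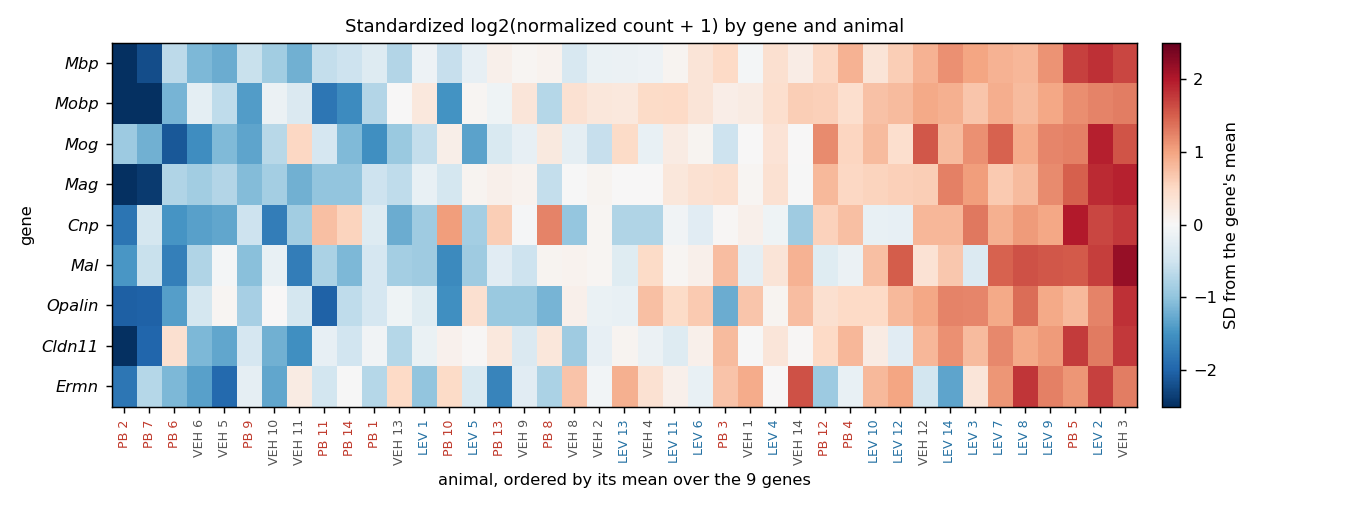
Standardized log2(normalized count + 1) of the 9 genes (y axis) in 41 animals (x axis, label colour by group), ordered by the mean over the genes. PB animals 2 and 7 are at the low end and PB 5, LEV 2 and VEH 3 at the high end for most genes.

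Transcripts of other genes were ranked by their Pearson r to the mean of the standardized members over the 41 animals, as a description. Among the 10 most alike were Adamts4 (r = 0.894), a protease of oligodendrocytes, and Ugt8 (0.862), which makes galactosylceramide for the sheath. The transcription factor Myrf had 0.817 and the lysophosphatidic acid receptor Lpar1 0.807. Nfasc, which encodes the neurofascins of the node and its flanks, gave 2 transcripts (0.772 and 0.759), and Cnksr3 had 0.765 and Tmem125 0.758. Of 13048 non-member transcripts, 198 had r of 0.5 or more (1.52%). Sox10 had 0.699, the precursor gene Pdgfra 0.499, Olig2 0.308 and Olig1 0.139.

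In a list of 35 other myelin and mature oligodendrocyte genes, 29 transcripts entered the test, of which 0 met both limits in PB against VEH (0 by DESeq2 too, 7 at an unadjusted p under 0.05 in edgeR). The median log2 fold change was 0.03. An adjusted p under 0.05 without the fold limit, reached by 5.39% of all transcripts, was found for Myrf, at 679 ± 94.8 (SD, n = 14) normalized counts in PB and 555 ± 77.2 (n = 13) in VEH animals (log2 fold change 0.28, adjusted p = 0.0138), and for Qdpr (-0.11) and Gpr37 (-0.18), by edgeR. Between PB and LEV, 23 of 29 were lower, with a median of -0.13. Between LEV and VEH 25 of 29 were higher, with 0 passing in edgeR or DESeq2 and 8 at an unadjusted p under 0.05.

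In a list of 20 genes of precursors and differentiation, 18 transcripts entered the test and 2 rose in PB against VEH. Enpp6, a marker of newly differentiating oligodendrocytes, was 37.9 ± 10.1 (SD, n = 13) in VEH and 61.0 ± 22.0 (n = 14) in PB animals (log2 fold change 0.66, adjusted p = 0.0136, edgeR), and Tcf7l2, a transcription factor of the same stage, had 0.35 (adjusted p = 0.0446, edgeR). Leaving out single animals took Tcf7l2 past the limit in 17 of 41 fits (adjusted p up to 0.0916) and Enpp6 in 0 of 41. C1ql1 had -0.22 (adjusted p = 0.0268, edgeR), below the fold limit. None of the 18 passed between LEV and VEH or between PB and LEV by edgeR or DESeq2 (3 each at an unadjusted p under 0.05 in edgeR).

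Of 22 transcripts for the synthesis of sterols and fatty acids, the lipids that myelin is rich in, 0 passed both limits in each of the 3 comparisons in edgeR and in DESeq2. At an unadjusted p under 0.05 there were 1, 3 and 2 in PB against VEH, LEV against VEH and PB against LEV. The smallest p between PB and VEH were those of Cyp51 (log2 fold change -0.15), Nsdhl (-0.11) and Sc5d (-0.09), 3 enzymes of cholesterol synthesis.

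Transcripts of choroid plexus and skeletal muscle were also examined, and only those of muscle held any that passed between groups. Of 12 choroid plexus transcripts all were higher than in VEH after PB (median log2 fold change 0.62) and after LEV (0.71), with 0 passing in edgeR and 0 at an unadjusted p under 0.05. Among these 12, Otx2 was entered 2 times with the same values. Their summed level ranged from 147 to 54199 normalized counts among VEH animals, from 177 to 85691 after PB and from 124 to 62308 after LEV, and no choroid plexus marker was at 0 in every animal of a group. With the choroid plexus level as a covariate, Opalin had -1.46 in PB against VEH (adjusted p = 0.0246, edgeR) and 5 of 14 members passed between PB and LEV, as did 85 of all 13062 transcripts in that fit. Skeletal muscle transcripts were lower in PB (3 of 4 tested passed, namely Atp2a1, Myh4 and Acta1), with summed levels of 126 to 199 in PB, 146 to 524 in VEH and 136 to 651 in LEV animals. With the muscle level as a covariate, Opalin had -1.47 in PB against VEH (adjusted p = 0.106, edgeR) and no longer passed, and it passed between PB and LEV (-1.93, adjusted p = 0.0313, edgeR). The covariate was the mean of the 4 tested muscle transcripts, all of them lower in PB than in VEH. This fit therefore cannot separate the muscle level from the treatment.

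Markers of Schwann cell myelin summed to 283 to 355 among VEH animals, 275 to 354 after PB and 283 to 342 after LEV, and 0 of 2 tested transcripts passed. Microglial markers had 0 of 9 passing between PB and VEH (1 at an unadjusted p under 0.05). Of 15 astrocyte transcripts 1 passed, Gfap, which rose (log2 fold change 0.32, adjusted p = 0.0024, edgeR), and it fell under the fold limit in 16 of 41 fits that left out 1 animal. Most of the astrocyte transcripts went the other way, with 10 of 15 lower (median -0.08). At an adjusted p under 0.05 without the fold limit, 3 were lower, Aldoc and Slc1a3 among them (-0.16 each), and 1 was higher (edgeR). Of 10 neuronal transcripts 0 passed between PB and VEH and all were lower (median -0.12, 6 at an unadjusted p under 0.05). Of 4 transcripts of the thalamus, 3 were higher and 1 was lower after PB relative to VEH, and only Prkcd passed (0.35, adjusted p = 0.0262, edgeR). Prkcd passed in 14 of 19 alternative settings. Ramp3 had 0.24 and Lef1 -0.13, and neither passed. The part of these tissues and cells in the myelin values was not tested beyond the covariates above.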

How the data were processed

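Hippocampal RNA of 42 pups was sequenced, 1 library per animal. Per the labels, the authors used STAR 2.7.3a and the rn6 build for alignment, and Partek's E/M method gave transcript-level estimates. The deposited values are these estimated counts before normalization, and 13.7% of them are not whole. The authors' table of comparisons holds p and adjusted p values, ratios, fold changes and group means, and was not used.

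Estimated counts were rounded, and the tests used edgeR 4.0.16 under R 4.3.3: TMM normalization, filterByExpr by treatment (13062 of 15516 transcripts kept), and glmQLFit with glmQLFTest on the 3 groups, with the code series as an additive term with p adjusted by Benjamini-Hochberg across the transcripts kept. Differential expression required both an adjusted p below 0.05 and a 1.25-fold difference or more. Totals were 9499492 to 14488134 counts, so that scarce transcripts such as Opalin rest on few counts per animal. DESeq2 1.42.0 was an alternative. The test was tried on simulated counts first. Log2 CPM had a prior count of 2. Standard errors were taken from the log2 fold change and the F statistic. Samples were grouped by their treatment labels.

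The genes and lists were chosen with earlier results of these data known. Named are all members, the transcripts of the lists that passed in any comparison, the 3 with the smallest p between PB and VEH in each list (given for the oligodendrocyte and sterol lists, the marker lists being summarised), and the 10 transcripts most like the members. A few results among the other genes are not reported here. Gjc3, Anln, Lhfpl3, Zfp488, Zfp536 and Ncmap were absent. The alternatives tried are listed with their effect below. Those chosen after seeing the data were PB animals 2 and 7 left out together, Opalin in PB against LEV, and Mobp in place of Opalin. The ratios of Opalin in the other 2 comparisons were planned, but with the study's report of lower Opalin after PB known. Promoter sequences are RefSeq's. Protein sequences were not used here. Levels were not compared between genes, as transcript lengths were not used here.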

Additional observations from a re-analysis of the deposited data

Results flagged for a closer look

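The VEH animal that its label marks as excluded (animal 7) entered none of the comparisons, and its values were set beside those of the other 13 VEH animals on a scale that includes it. For 5 of the 9 genes it lay above every other animal of the 3 groups: Mobp at 644 normalized counts (highest of the other VEH animals 561), Mag at 1521 (1157), Cnp at 6957 (4195), Cldn11 at 1227 (1129) and Ermn at 29.1 (24.8). Mbp, Mog, Mal and Opalin lay within the range of the other VEH animals. Its 18S ribosomal RNA (Rn18s) was 2.01-fold the highest of the other VEH animals. With this animal kept, Opalin had a log2 fold change of -1.51 between PB and VEH (adjusted p = 0.0294, edgeR), and Mobp no longer passed between PB and LEV (-1.37, adjusted p = 0.0546, edgeR).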

How the results depend on the processing

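Between PB and VEH the count of members passing was 1, and it was 0 with DESeq2 at its defaults (its filtering gave Opalin no adjusted p), with a mean of at least 50 counts or only the 2 groups compared (Opalin was then not tested), with animals 1 to 6 alone, with the skeletal muscle level as covariate and without PB animals 2 and 7. With animals 7 to 14 alone it was 1, but Mobp passed (adjusted p = 0.0482, edgeR) and Opalin did not (0.07). Between PB and LEV it was 2, and it was 1 with a mean of at least 50 counts (Opalin was then not tested), with all 14 VEH animals or without PB animals 2 and 7, 0 with animals 1 to 6 alone, 4 with series effects subtracted before DESeq2, and 5 with animals 7 to 14 alone or the choroid plexus level as covariate. Counts summed per gene symbol gave 3 of 9 genes. DESeq2 at its defaults gave Opalin no adjusted p here either, while Mobp passed (0.0109, DESeq2). Without outlier handling or filtering Opalin passed (adjusted p = 0.000269, DESeq2). Leaving out 1 animal gave 0 to 2 between PB and VEH (Mobp was gained without PB 5) and 2 to 6 between PB and LEV. Without PB 5, 115 and 101 of all 13045 transcripts passed in these 2 comparisons. LEV against VEH gave 0 in every alternative run. The counts of Opalin ratios passing (7 and 0 of 8) did not change without stratification by code series or with all 14 VEH animals. The median r of the members moved to 0.837 with animals 1 to 6, 0.590 with animals 7 to 14 and 0.807 with VEH animals alone.

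The labels do not name the litters, so litter was not a term of the test. Of 40 same-number pairs of animals, 10 had a correlation over 0.1 (-0.332 to 0.329), and 7 of 41 animals correlated best with their own number. Such correlations cannot show whether animals of the same number shared a litter. With the animal number as a replicate block, the members passing between PB and VEH numbered 0 (Opalin adjusted p = 0.0578, edgeR), the precursor list 1, and Cnp between PB and LEV had 0.0022.

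The precursor list gave 2 between PB and VEH, 1 without the low-count filter, with a 50-count mean, no code-series term, a code-series-by-treatment term, animals 7 to 14 alone, only the 2 groups compared or the choroid plexus covariate, 0 with animals 1 to 6 alone, all 14 VEH animals or the muscle covariate, and 1 to 2 without single animals. It gave 3 between LEV and VEH with animals 1 to 6 alone, where 170 of all 13112 transcripts passed. Between PB and LEV it gave 1 with series effects subtracted or without PB animals 2 and 7, and 0 to 1 without single animals (1 without PB 2). The other myelin list gave 1 between PB and LEV, 0 with a mean of at least 50 counts, no code-series term, animals 1 to 6 alone, all 14 VEH animals or without PB animals 2 and 7, 3 with no fold limit, and 0 to 2 without single animals (0 without PB 7, PB 11 or LEV 2). Between PB and VEH it gave 1 with animals 7 to 14 alone, the muscle covariate or without PB animals 2 and 7, 3 with no fold limit, and 0 to 1 without single animals (1 without VEH 3). The sterol list gave 1 between PB and LEV with no fold limit. The causes were not tested.

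The following log2 fold changes turned sign, most of them from main values close to 0, but not those of Opalin (0.46) and Mal (0.49) in LEV against VEH or Myh4 (-1.93) in PB against LEV. Mbp NM_001025289 had -0.0103 (code-series-by-treatment term), -0.0092 (series effects subtracted), -0.0984 (animals 1 to 6) and -0.1022 (all 14 VEH animals) in LEV against VEH, and with animals 1 to 6 alone 0.0109 in PB against VEH and 0.1093 in PB against LEV. Also with animals 1 to 6 alone, Mbp NM_001025293 had 0.0944 in PB against VEH, and in LEV against VEH Opalin had -0.0761 and Mal -0.2604. With animals 7 to 14 alone Mbp NM_001025291 had -0.0858 and NM_001025292 -0.0096 in PB against VEH, and Cnp had 0.0320 in PB against LEV. NM_001025292 also had -0.0359 with all 14 VEH animals and -0.0312 with the choroid plexus covariate. With the muscle covariate, Cnp had 0.0713 and Myh4 0.0690 in PB against LEV. Without PB animals 2 and 7, Mbp NM_001025293 had 0.0475 and NM_017026 0.0054 in PB against VEH, and NM_001025294 0.0163 and Cnp 0.0446 in PB against LEV. Leaving out single animals gave -0.0389 to 0.0278 for Cnp in PB against LEV, -0.0248 to 0.0889 for NM_001025289 in LEV against VEH and -0.0983 to 0.0227 in PB against VEH, and -0.0995 to 0.1737 for NM_001025292 in PB against VEH.

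Depth limits Opalin and Ermn most, with under 5 counts in 8 and 5 of 14 PB animals.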
